A study of Mus musculus with 16 samples.

Results

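The cytosolic ribosomal protein genes were followed through RNA-seq of 2 kinds of spleen B cell, follicular (FoB) and germinal center (GCB), of mice with and without a B cell deletion of Rock2, which encodes a serine-threonine kinase of the cytoskeleton. Members were the protein-coding rows of the deposited count table whose symbol starts with Rpl or Rps and a digit, without the S6 kinases (Rps6k), and whose counts summed to at least 1200 over the 12 libraries. Of 25640 rows, 87 met the symbol rule and 77 also met the total, 44 named for the large and 33 for the small subunit. All 77 also passed the low-count filter and were among the 13708 genes tested. The members nearest above the limit were Rps27rt with 3435 counts, Rps19bp1 with 4919 and Rps27l with 15728. The rows nearest below it were Rpl9-ps6 with 1040 counts, Rpl7a-ps5 with 484 and Rpl36al with 231, and 6 of the 10 rows left out carry pseudogene symbols. The symbol rule also takes in Rps19bp1, which encodes a binding partner of the Rps19 protein and no ribosomal subunit protein, and 4 relatives of canonical genes, Rps27l, Rps27rt, Rpl22l1 and Rpl7l1. It leaves out 6 genes of ribosomal proteins with other names, among them Rplp0 and Fau, and the limit leaves out the row of the canonical gene Rpl24, with 111 counts.

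The ribosome is built from ribosomal RNA and a set of proteins that are needed in matched amounts, so their genes are usually expressed together. Their mRNAs are among the most abundant in a cell and begin with a run of pyrimidines, the terminal oligopyrimidine (TOP) motif, through which their translation follows the mTOR kinase. B cells enlarge and divide quickly in the germinal center, and follicular B cells rest.

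All 4 groups came from spleens of C57BL/6 mice, 10 weeks old, taken 7 days after an injection of 100 µg NP-CGG, a protein carrying the hapten NP, in the adjuvant alum. Both alleles of Rock2 were floxed in every mouse, so the controls (WT) carried the floxed gene without Cre. The conditional knockout (cKO) mice carried CD23-Cre in addition, a recombinase driven by the promoter of a surface protein of maturing B cells, so that cKO FoB and cKO GCB both lie after the deletion. Each cell type and genotype made a group of 3 libraries, numbered 1 to 3. The libraries are not stated to come from separate animals, so p-values measure the spread between these samples only.

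The smallest library was WT FoB 3 with 23349512 counts and the largest cKO FoB 1 with 26967943. Rock2 itself, in CPM (counts divided by a library's total after scaling with edgeR's TMM factors), measured 151, 129 and 132 in WT FoB, 123, 87.4 and 96.5 in cKO FoB, 198, 154 and 145 in WT GCB and 119, 131 and 92.6 in cKO GCB. It lay lower in all cKO than in all WT libraries of the same cell type, and its counts may include exons outside the floxed part. The log2 fold change of Rock2 in cKO over WT GCB was -0.54 ± 0.18 (± SE, edgeR adjusted p = 0.563). In FoB it was -0.42 ± 0.18, and neither value passed. With the library number as a block, Rock2 passed in GCB (-0.53 ± 0.12, edgeR adjusted p = 0.0330) and did not pass in FoB (-0.43 ± 0.12). The summed level of 10 germinal center markers was 132 to 304 CPM in FoB and 4106 to 5802 CPM in GCB, and that of 8 naive follicular markers 3787 to 5945 CPM in FoB, 449 to 516 CPM in WT GCB and 571 to 893 CPM in cKO GCB. WT FoB 1 had the highest germinal center sum of the FoB libraries and cKO GCB 1 the highest naive sum of the GCB libraries. Counts of calls are also given without these 2 libraries, a pair chosen with earlier results of these data known. No marker of another cell type was at 0 in all libraries. The 8 T cell markers together reached 19.1 CPM in cKO GCB and 7.68 CPM in WT GCB, and 26.7 CPM in FoB. Libraries of number 2 carried the most mitochondrially encoded RNA of their groups, within a range of 1.05% to 5.502% of counts. Libraries of the same number deviated together, so many results are also given from a fit that takes the number as a block. Calls of edgeR come from the fit without it unless the block is named.

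The first transcribed bases are shown because the TOP motif lies there. Each line gives 30 bases before an annotated start and 20 bases from it on, with capitals for a run of C and T that begins with C at the start and has at least 4 further bases. The sequences are those of RefSeq on GRCm38.p6, written 5′ to 3′ on the gene's strand. Rps27 and its 2 relatives come first, then Rps6, Rps18, Rpl15 and Rpl28, which meet this rule, and Rps24, which has C and T around its annotated start but does not begin with C there and so is left in lower case.
Rps27 (chr3:90213629-90213678, minus strand): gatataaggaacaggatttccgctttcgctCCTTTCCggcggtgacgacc
Rps27rt (chr9:114982720-114982769, minus strand): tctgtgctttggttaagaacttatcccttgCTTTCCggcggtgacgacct
Rps27l (chr9:66946056-66946105, plus strand): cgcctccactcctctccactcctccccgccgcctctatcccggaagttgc
Rps6 (chr4:86857348-86857397, minus strand): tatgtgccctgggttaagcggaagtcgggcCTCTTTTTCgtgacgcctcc
Rps18 (chr17:33955646-33955695, minus strand): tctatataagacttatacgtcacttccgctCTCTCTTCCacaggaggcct
Rpl15 (chr14:18270967-18271016, minus strand): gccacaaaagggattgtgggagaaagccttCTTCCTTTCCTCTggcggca
Rpl28 (chr7:4792935-4792984, plus strand): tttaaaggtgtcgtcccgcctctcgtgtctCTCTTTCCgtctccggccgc
Rps24 (chr14:24490648-24490697, plus strand): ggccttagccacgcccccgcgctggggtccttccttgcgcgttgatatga

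All 77 members have a locus in RefSeq, and 58 of them had an entry in the set of promoter sequences used here. The other 19 were not searched. A start with C followed by at least 4 bases that are each C or T, read on the gene's strand at the annotated start, was found in 13 of these 58 (22.4%), in 813 of 27025 genes with an entry (3.01%), and in 0 of 69 genes of mitochondrial ribosomal proteins. A run of at least 8 such bases, beginning with C within 10 bases of the start, was found in 23 members (39.7%), Rps24 among them, against 9.43% of all genes and 7.25% of the mitochondrial ribosomal protein genes. Annotated starts can lie some bases from the start in use, so a missing run shows only that the letters are not in this window. Rps27 and its retrogene Rps27rt share a stretch of 19 bases in the windows shown and of 38 in the 50 bases after the start, and Rps27 and Rps27l share at most 5. The start shown for Rps27l lies inside its locus (66944624 to 66949522) and not at the locus end, so other starts of Rps27l were not compared. Members lie on 19 chromosomes, 4 of them on X, and 28 hold 55 annotated snoRNA genes inside.

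GCB gave the ribosomal protein genes a smaller share of their reads than FoB did, in both genotypes. The members held 6.73%, 8.84% and 8.44% of counts in WT FoB 1 to 3 and 7.53%, 8.56% and 8.63% in cKO FoB. They held 4.07%, 5.06% and 5.85% in WT GCB and 4.49%, 4.85% and 5.95% in cKO GCB. All 6 GCB libraries lay below all 6 FoB libraries, and the WT and cKO libraries of a cell type overlapped. The means were 8.004% ± 1.12 (SD, n = 3) in WT FoB, 8.24% ± 0.617 in cKO FoB, 4.99% ± 0.890 in WT GCB and 5.10% ± 0.764 in cKO GCB. Number 1 was the lowest library of every group. A share says nothing of the amount of RNA per cell, and in sorted bulk samples fewer cells of a type and less RNA per cell cannot be told apart.

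**Figure D1:**
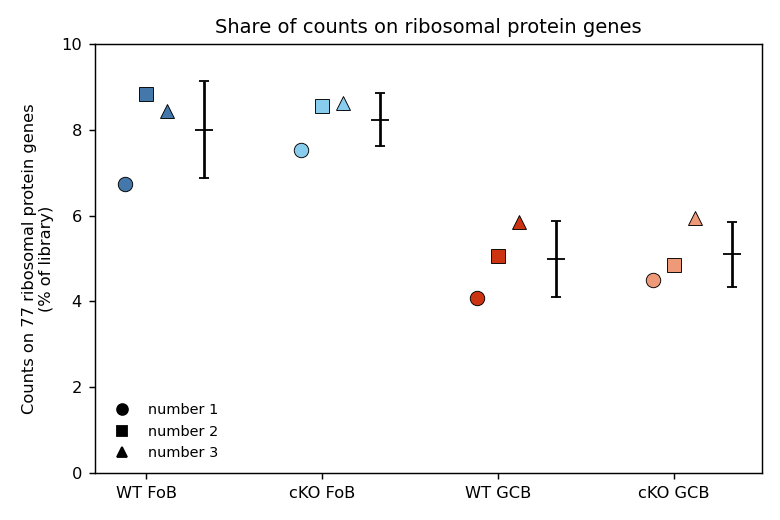
Percent of each library's counts on the 77 ribosomal protein genes (vertical axis) in the 4 groups. Symbols mark the library number and bars the mean ± SD of 3 libraries. All GCB libraries, at 4.07% to 5.95%, lie below all FoB libraries, at 6.73% to 8.84%.

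The smaller share fell unevenly on the subunits. The counts on large subunit members divided by those on small subunit members were 0.974 to 1.02 in the 6 FoB libraries and 1.12 to 1.19 in the 6 GCB libraries, with no overlap. In WT the median log2 fold change of GCB over FoB was -0.47 for the 44 large and -0.71 for the 33 small subunit genes, and 14 large and 18 small subunit genes were called lower, where 22.8% of all genes tested were. In cKO the medians were -0.50 and -0.74, with 14 and 20 genes called lower and 21.8% of all genes.

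The comparison of cell types in WT asked which genes differ between GCB and FoB. Most members were lower in GCB, by a median log2 fold change of -0.62, against -0.01 over all genes tested. Of the 77, 72 lay below 0, with values from -1.61 for Rps27rt to 1.35 for Rps27l. In edgeR's quasi-likelihood test at an adjusted p of 0.05, 32 members (41.6%) fell and 2 (2.60%) rose, where 22.8% of all genes tested fell and 25.6% rose. With the library number as a block, 67 members fell and 3 rose, against 34.3% and 35.2% of all genes. In 27 members (35.1%) every WT GCB library lay below every WT FoB library, which held for 26.8% of all genes, and in 2 members every GCB library lay above, as in 29.5% of all genes. In the fit without the block the calls moved with single libraries. There 12 members fell without WT FoB 2, 13 without WT GCB 1 and 20 without WT FoB 3. Without WT FoB 1 and cKO GCB 1, 38 fell. Beside these values the 5 NK cell markers summed to 15.5 to 60.3 CPM in FoB and 4.57 to 10.9 CPM in GCB, and the 5 plasma cell markers to 122 to 215 CPM and 969 to 1713 CPM, and their part was not tested.

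The same comparison was made in cKO. The median was -0.62 (all genes -0.02), 71 of 77 members lay below 0, 34 (44.2%) fell and 2 rose, where 21.8% of all genes fell and 24.8% rose. With the block 66 fell and 4 rose (34.3% and 34.7% of all genes). The cell types did not overlap in 38 lower (49.4%) and 2 higher members, and in 25.2% and 28.3% of all genes. Without cKO GCB 1 15 members fell, without cKO GCB 2 20 did, and without WT FoB 1 and cKO GCB 1 17 did. All 32 members that fell in WT were among the 34 of cKO, and the other two, Rps10 and Rps16, measured -0.69 and -0.63 in WT without passing (edgeR adjusted p = 0.0749 and 0.0587). Rpl13a and Rps27l rose in both genotypes.

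**Figure D2:**
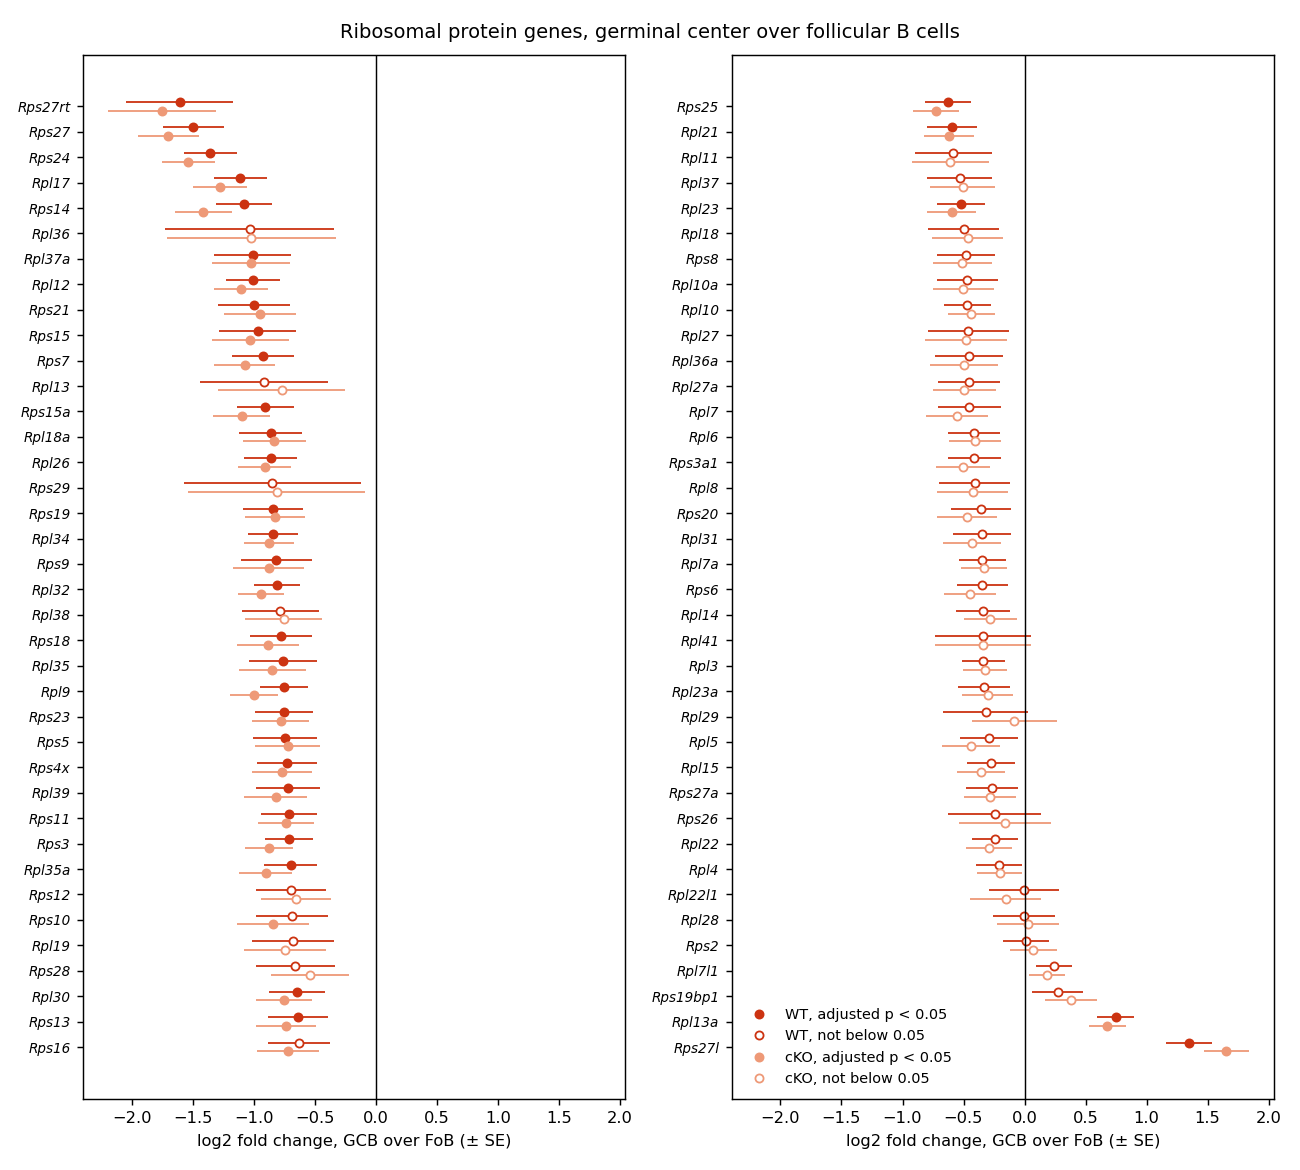
Log2 fold change of GCB over FoB (horizontal axes, ± SE) for the 77 ribosomal protein genes but 1, which is not shown, in WT (dark) and cKO (light), ordered by the WT value over both panels. Filled points passed edgeR's test at an adjusted p of 0.05, and the members run from Rps27rt at -1.61 to Rps27l at 1.35 in WT.

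Among the small subunit genes Rps27 and Rps24 fell furthest among the canonical members. Rps27 (ENSMUSG00000090733, GRCm38.p6 chromosome 3, 90212667 to 90213648) encodes a zinc-finger protein of the small subunit. It measured 2251, 3592 and 3164 CPM in WT FoB, 2582, 3655 and 2930 in cKO FoB, 812, 1132 and 1248 in WT GCB and 697, 1052 and 1074 in cKO GCB. Every GCB library lay below every FoB library. The log2 fold change was -1.50 ± 0.25 in WT (± SE, edgeR adjusted p = 0.00039) and -1.70 ± 0.25 in cKO (adjusted p = 0.00017), with lower values in 3 of 3 numbers in each.

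Rps24 (ENSMUSG00000025290, chromosome 14, 24490678 to 24496960) encodes a small subunit protein that is mutated in some patients with Diamond-Blackfan anaemia, a failure of red cell production. It measured 2083, 3048 and 2267 CPM in WT FoB, 2295, 3127 and 2169 in cKO FoB, 806, 1084 and 1001 in WT GCB and 710, 998 and 909 in cKO GCB. The cell types did not overlap. It fell by 1.36 ± 0.22 on the log2 scale in WT (edgeR adjusted p = 0.00029) and by 1.54 ± 0.22 in cKO (adjusted p = 0.00013). Rps14 (ENSMUSG00000024608, chromosome 18, 60774596 to 60778546), whose human gene is lost in a myelodysplastic syndrome, measured 1284, 1983 and 1505 CPM in WT FoB, 1663, 1769 and 1989 in cKO FoB, 536, 748 and 975 in WT GCB and 627, 605 and 803 in cKO GCB. All GCB libraries lay below all FoB libraries, with log2 fold changes of -1.08 ± 0.23 in WT (edgeR adjusted p = 0.0023) and -1.41 ± 0.23 in cKO (adjusted p = 0.00042).

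Of the large subunit genes, Rpl17 and Rpl12 had the smallest p-values among those that fell in WT. Rpl17 (ENSMUSG00000062328, chromosome 18, 74998978 to 75003381), a protein at the exit of the peptide tunnel, measured 1593, 2300 and 1988 CPM in WT FoB, 1813, 2197 and 2066 in cKO FoB, 701, 919 and 1104 in WT GCB and 635, 887 and 980 in cKO GCB. It fell by 1.11 ± 0.22 in WT (edgeR adjusted p = 0.0013) and by 1.28 ± 0.22 in cKO (adjusted p = 0.00055), with no overlap between cell types. Its locus holds 3 snoRNA genes. Rpl12 (ENSMUSG00000038900, chromosome 2, 32961712 to 32964045), at the base of the stalk that binds translation factors, measured 1399, 2221 and 1867 CPM in WT FoB, 1643, 2114 and 1933 in cKO FoB, 721, 973 and 1037 in WT GCB and 732, 827 and 1086 in cKO GCB. It too fell in both, by 1.01 ± 0.22 (edgeR adjusted p = 0.0026) and 1.10 ± 0.22 (adjusted p = 0.0015), and its cell types did not overlap.

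The relatives of Rps27 moved in opposite directions. Rps27l (ENSMUSG00000036781, chromosome 9, 66944624 to 66949522) encodes a close relative of the Rps27 protein that is a target of p53 and binds MDM2 in human cells. It measured 24.5, 31.1 and 23.5 CPM in WT FoB, 26.2, 30.7 and 23.6 in cKO FoB, 61.6, 77.6 and 62.2 in WT GCB and 66.5, 98.7 and 88.6 in cKO GCB. Every GCB library lay above every FoB library, and the genotypes overlapped in each cell type. It rose by 1.35 ± 0.19 in WT (edgeR adjusted p = 9.8e-05) and 1.65 ± 0.19 in cKO (adjusted p = 2.4e-05), and was the member with the largest rise in both. Rps27 counts divided by Rps27l counts were 114 ± 21.4 in WT FoB, 114 ± 13.6 in cKO FoB, 15.9 ± 3.63 in WT GCB and 11.1 ± 0.900 in cKO GCB (n = 3 each). The ratio is not corrected for transcript length.

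Rps27rt (ENSMUSG00000050621, chromosome 9, 114982366 to 114982739), a retrogene of Rps27, measured 17.7, 25.1 and 8.72 CPM in WT FoB, 17.0, 23.7 and 9.66 in cKO FoB, 6.11, 6.97 and 3.81 in WT GCB and 5.45, 6.52 and 2.95 in cKO GCB. The cell types did not overlap, and number 3 was the lowest library of each group. It fell by 1.61 ± 0.44 in WT (edgeR adjusted p = 0.0098) and 1.75 ± 0.44 in cKO (adjusted p = 0.0065). Counts on Rps27 divided by those on Rps27rt averaged 211 ± 132 (SD, n = 3, as for the next 3 values) in WT FoB, 203 ± 86.7 in cKO FoB, 208 ± 105 in WT GCB and 218 ± 127 in cKO GCB. Reads of the retrogene and of Rps27 are hard to separate, so the counts of Rps27rt are uncertain. The same holds in general for the 186 rows of ribosomal protein pseudogenes, which held 0.400 to 0.582 counts per 100 on the members, with group means of 0.501 to 0.512.

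**Figure D3:**
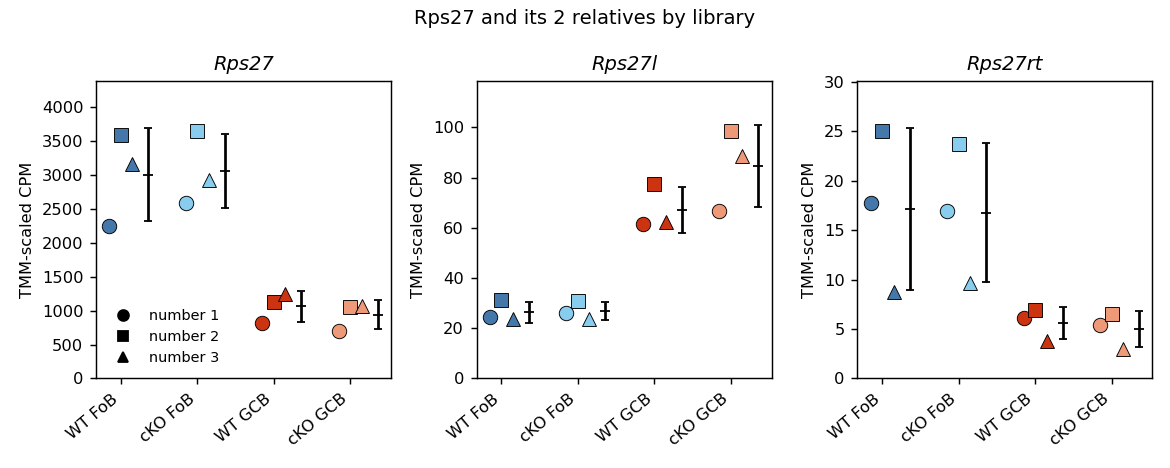
Level in TMM-scaled CPM (vertical axes, a scale for each panel) of Rps27, Rps27l and Rps27rt in each library, with the mean ± SD of 3. Rps27 and Rps27rt are lower in every GCB library than in every FoB library, and Rps27l is higher, at 61.6 to 98.7 CPM against 23.5 to 31.1 CPM.

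Rpl13a (ENSMUSG00000074129, chromosome 7, 45125563 to 45128745), a large subunit protein that also silences inflammatory mRNAs in human monocytic cells, was the other member that rose. It measured 38.3, 39.99 and 42.3 CPM in WT FoB, 39.2, 39.2 and 42.9 in cKO FoB, 55.8, 73.3 and 73.3 in WT GCB and 54.1, 73.3 and 66.8 in cKO GCB. All GCB libraries lay above all FoB libraries. The log2 fold change was 0.75 ± 0.15 in WT (edgeR adjusted p = 0.0016) and 0.68 ± 0.15 in cKO (adjusted p = 0.0031), where the call was lost without the libraries of number 2 (adjusted p = 0.0725). Its locus holds 4 snoRNA genes and the table has a pseudogene row for it, Rpl13a-ps1, so its counts are uncertain.

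The other genes that resemble a canonical member did not pass. Rpl22l1, a relative of Rpl22, measured 125 ± 26.2 CPM in WT FoB and 125 ± 27.8 CPM in WT GCB, a log2 fold change of -0.00 ± 0.29 (edgeR adjusted p = 0.993). Its value in WT was above 0 without WT FoB 1 (0.01). Rpl22 itself, an RNA-binding large subunit protein needed by developing T cells, measured -0.24 ± 0.19 (adjusted p = 0.317, and 0.0417 with the block). Rpl7l1, which takes part in assembly of the large subunit, measured 120, 144 and 135 CPM in WT FoB and 139, 175 and 157 CPM in WT GCB (0.24 ± 0.15, edgeR adjusted p = 0.205). With the block it rose in both genotypes (adjusted p = 0.0126 in WT and 0.0433 in cKO), while its relative Rpl7, at -0.45 ± 0.26 in WT, fell with the block (adjusted p = 0.0012). Rps19bp1 measured 0.27 ± 0.21 in WT and 0.38 ± 0.21 in cKO, without passing. With the block it rose in cKO (adjusted p = 0.0185) and did not pass in WT (0.0620). The difference between genotypes was 0.11 ± 0.30 and did not pass (edgeR adjusted p = 1.00).

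Some roles held no call without the block. Rpl5 and Rpl11, which bind 5S RNA and, when free, MDM2, measured -0.29 ± 0.24 and -0.58 ± 0.31 in WT (edgeR adjusted p = 0.334 and 0.144), and both fell with the block (0.0109 and 7.3e-05). Rps27a, made as a fusion with ubiquitin, measured 986 ± 162 CPM in WT FoB and 818 ± 137 CPM in WT GCB (-0.27 ± 0.21, adjusted p = 0.319, and 0.0205 with the block). Rps6, the substrate of the S6 kinases, measured 866 ± 178 CPM and 681 ± 115 CPM (-0.35 ± 0.21, edgeR adjusted p = 0.202, and 0.0061 with the block). Of 8 genes whose proteins bind MDM2, 5 fell and Rps27l rose. Of 9 genes mutated in human Diamond-Blackfan anaemia 4 fell, and of 9 at the peptide exit tunnel 4 fell. Beside these counts 41.6% of all members and 22.8% of all genes tested fell, so they show nothing particular to these roles. With the block 7 of the 8, 7 of the 9 and 8 of the 9 fell, beside 87.0% of all members and 34.3% of all genes. Among the 4 X-linked members Rps4x, at 2455 ± 510 CPM in WT FoB and 1483 ± 277 CPM in WT GCB, fell by 0.73 ± 0.24 (edgeR adjusted p = 0.0269), and Rpl39 fell by 0.72 ± 0.26 (adjusted p = 0.0381). Rpl10, which joins late in assembly, and Rpl36a, near the tRNA exit site, measured -0.47 ± 0.19 and -0.46 ± 0.28 and did not pass (0.0637 and 0.203). Both fell with the block (edgeR adjusted p = 0.00093 and 0.00063).

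Rps2 and Rpl28, canonical members with values near 0, are named here after their values were seen. Rps2, at the mRNA entry, measured 901, 1318 and 1002 CPM in WT FoB, 1006, 1341 and 1020 in cKO FoB, 910, 1273 and 1067 in WT GCB and 1076, 1206 and 1256 in cKO GCB. The groups overlapped, and its log2 fold change in WT was 0.01 ± 0.19, and that of Rpl28 was -0.00 ± 0.25 (edgeR adjusted p = 0.963 and 0.992). Neither passed with the block (adjusted p = 0.890 and 0.868). Of the 58 members with a promoter entry, 13 had C and at least 4 further pyrimidines at the start. Their median log2 fold change in WT was -0.76, and that of the other 45 was -0.53. The 13 ran from -1.61 (the retrogene Rps27rt) to -0.00 and the 45 from -1.36 to 1.35 (Rps27l), so the sets overlapped. The 45 also hold Rpl22l1, Rpl7l1 and Rps19bp1, which are not canonical members. The difference was not tested. The 28 members that hold snoRNA genes had a median of -0.53, the other 49 one of -0.68.

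Members varied between libraries of a group along with the number. The SD of log2 CPM within groups had a median of 0.32 over the members and ran from 0.17 to 1.04. On average over the groups 73 of the 77 were lowest in number 1, 17 were highest in number 2 in all 4 groups and 13 were highest in number 3 in all 4. Rps29, a zinc-finger protein of the small subunit, had the widest spread, at 227, 394 and 931 CPM in WT FoB, 284, 358 and 883 in cKO FoB, 113, 193 and 556 in WT GCB and 137, 173 and 559 in cKO GCB. It was highest in number 3 in every group and lower in GCB than in FoB in every number. Its log2 fold change of -0.85 ± 0.73 did not pass (edgeR adjusted p = 0.362), and with the block it was -0.93 ± 0.12 (adjusted p = 1.4e-05). Rpl36 was alike, at 118, 275 and 385 CPM in WT FoB and 55.3, 80.5 and 244 in WT GCB (-1.03 ± 0.69, adjusted p = 0.241, and 0.0011 with the block). Within single numbers the median of GCB minus FoB over the members was -0.60, -0.75 and -0.43 in WT and -0.67, -0.85 and -0.45 in cKO. In WT 68 members lay below FoB in all 3 numbers, as did 40.7% of all genes.

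Other genes of the translation machinery were compared over the same libraries, in which 25.6% of all genes tested rose and 22.8% fell in WT GCB. Of 76 tested genes of mitochondrial ribosomal proteins, encoded in the nucleus, 47 rose and 1 fell in WT GCB, with a median of 0.58. With the block 61 rose and 4 fell, where 35.2% of all genes rose and 34.3% fell. Mrpl18 rose from 42.6 ± 1.78 to 133 ± 11.3 CPM (1.64 ± 0.14, edgeR adjusted p = 2.4e-06), and Mrpl27 from 12.7 ± 0.685 to 37.7 ± 4.45 CPM (1.57 ± 0.14, adjusted p = 4.1e-06). Of 44 genes of ribosome biogenesis 19 rose and 1 fell (median 0.36), and 24 rose and 3 fell with the block. Gar1, of the complex that modifies uridines in ribosomal RNA, rose from 20.8 ± 1.71 to 41.0 ± 0.846 CPM (0.98 ± 0.13, edgeR adjusted p = 8.1e-05), and Emg1, a methyltransferase of the small subunit's RNA, rose by 0.61 ± 0.12 (adjusted p = 0.0016).

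Of 19 initiation factors outside the TOP class, 12 rose and 2 fell (median 0.68), and 17 rose and 2 fell with the block. Eif5b, which joins the subunits, rose from 148 ± 7.76 to 312 ± 20.1 CPM (1.08 ± 0.14, edgeR adjusted p = 5.0e-05), and Eif4h, a helper of the helicase that unwinds mRNA, rose by 1.21 ± 0.19 (adjusted p = 0.00022). The TOP-class list holds translation factors and other genes with TOP mRNAs. Of its 15 tested genes, 1 rose and 1 fell (median -0.07). These were Hnrnpa1 (0.50 ± 0.13, edgeR adjusted p = 0.0085) and Tpt1 (-0.67 ± 0.25, adjusted p = 0.0422), neither of them an initiation or elongation factor. With the block 3 of the 15 rose and 4 fell. Of 14 genes of RNA polymerase I and its factors 3 rose, among them Polr1e (0.60 ± 0.12, adjusted p = 0.0014) and Polr1d (0.75 ± 0.16, adjusted p = 0.0022), and of 5 chaperones of ribosomal proteins 1 rose, Heatr3 (0.65 ± 0.19, adjusted p = 0.0125). The counts that rose among these 14 and 5 genes were near the 25.6% of all genes, as was that of the regulators, and are no result about these lists. With the block 6 of the RNA polymerase I genes rose and 2 fell, and 3 of the chaperones rose and 2 fell. Of all genes 35.2% rose and 34.3% fell with the block. Of 14 tested regulators 4 rose and 2 fell, among them the S6 kinase gene Rps6kb1 (1.38 ± 0.22, edgeR adjusted p = 0.00031) and Maf1, a repressor of RNA polymerase III (-0.82 ± 0.13, adjusted p = 0.00036). With the block 7 of these regulators rose and 3 fell.

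The 6 ribosomal protein genes outside the symbol rule had a median of -0.38 and none was called in WT. With the block 3 fell, as did 34.3% of all genes. Fau, made as a fusion with a ubiquitin-like protein, measured 894 ± 302 CPM in WT FoB and 458 ± 208 CPM in WT GCB (-0.96 ± 0.39, edgeR adjusted p = 0.0585, and 0.00015 with the block). In cKO it fell by 1.13 ± 0.39 (adjusted p = 0.0323).

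**Figure D4:**
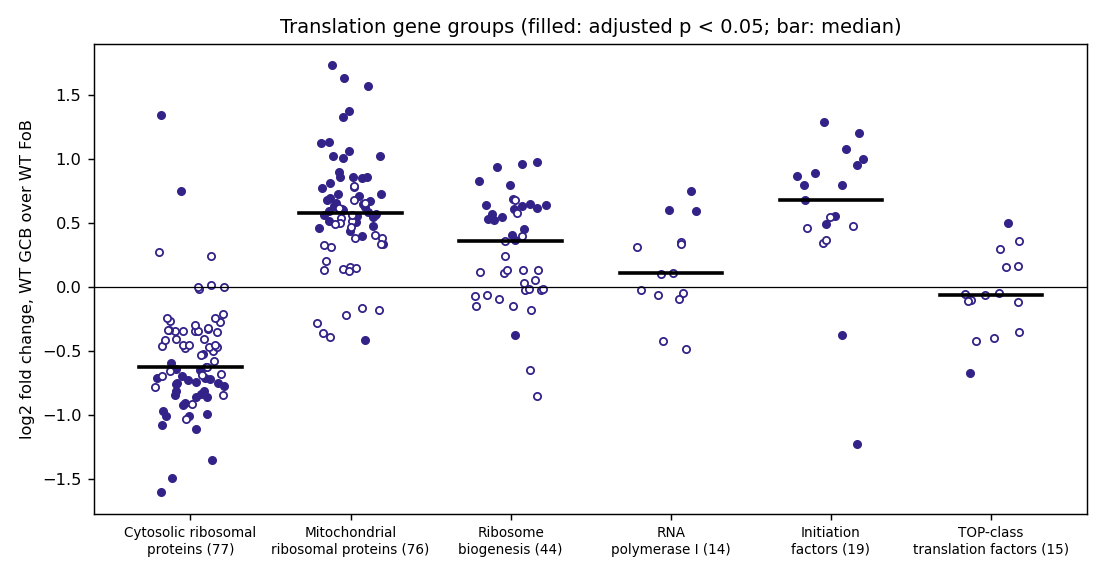
Log2 fold change of WT GCB over WT FoB (vertical axis) for each gene of 6 groups of the translation machinery, with the number tested in brackets. Filled points passed edgeR's test at an adjusted p of 0.05 and bars mark medians, at -0.62 for cytosolic and 0.58 for mitochondrial ribosomal proteins. The TOP-class group also holds genes that are not translation factors, Hnrnpa1 and Tpt1 among them.

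The comparison of cKO with WT asked which genes differ between the genotypes in each cell type. Only cKO mice carried Cre, so loss of Rock2 and presence of Cre cannot be told apart. Rock2 itself passed only in GCB and only with the block, so a missing call does not show that a member is unchanged. In GCB no member was called in either direction, where 0.102% of all genes tested rose and 0.00% fell. The median was -0.01 (all genes -0.00), 34 of 77 members lay above 0, and values ran from -0.18 to 0.37. No member had an unadjusted p under 0.05, and with the block 1 did, with 0 calls (1.93% and 0.212% of all genes rose and fell). DESeq2 also called 0. WT and cKO libraries overlapped in every member, where 5.42% of all genes lay apart as higher and 2.95% as lower. A lower value in all 3 numbers was seen in 21 members (27.3%) and in 19.3% of all genes. In numbers 1, 2 and 3 the members lying higher in cKO GCB numbered 49, 5 and 44 of 77. The medians were 0.11, -0.13 and 0.01, so the direction was not shared by the numbers. The naive follicular markers, at 571 to 893 CPM in cKO GCB against 449 to 516 CPM in WT GCB, moved with the genotype, and their part in these values was not tested.

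In FoB 0 members were called, as were 0.00% of all genes in either direction. No member reached an unadjusted p of 0.05 with or without the block, and DESeq2 called 0. The median was 0.03 (all genes 0.01), and 58 of 77 members lay above 0, from -0.07 to 0.35. WT and cKO libraries overlapped in every member, where 1.05% of all genes lay apart as higher and 1.15% as lower. In number 1 68 members lay higher in cKO and in number 2 23 did, so the direction was not shared by the numbers. Leaving out WT FoB 1 turned the median to -0.13.

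The member with the smallest p in GCB was Rps27l, higher in cKO in 3 of 3 numbers by 0.33 ± 0.18 (edgeR adjusted p = 1, unadjusted 0.0936). With the block it measured 0.33 ± 0.10 with an unadjusted p of 0.0054 and an adjusted p of 0.126. In the authors' deposited table its log2 fold change in GCB was 0.35 with a false discovery rate of 0.262, the lowest of the members, and that table called no member in either cell type. Rps15a (-0.18 ± 0.23), Rpl9 (-0.15 ± 0.20), Rps27 (-0.18 ± 0.24) and Rps24 (-0.14 ± 0.21) came next, each lower in 3 of 3 numbers with an edgeR adjusted p of 1. In FoB the smallest p-values were those of Rps14 (0.18 ± 0.23), Rpl27a (0.17 ± 0.25), Rpl15 (0.11 ± 0.20), Rps10 (0.15 ± 0.29) and Rpl10a (0.13 ± 0.25), each with an edgeR adjusted p of 1 and higher in 2 of 3 numbers.

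The genotype effect in GCB less that in FoB had a median of -0.04 over the members, and of 0.23 without WT FoB 1 and cKO GCB 1. In this contrast 0 members were called in either direction (all genes 0.00730% higher and 0.00% lower). None had an unadjusted p under 0.05, also with the block, and DESeq2 called 0. The furthest values were 0.31 ± 0.26 for Rps27l and -0.33 ± 0.32 for Rps14 (edgeR adjusted p = 1.00 for each). No gene of the mitochondrial ribosomal proteins, ribosome biogenesis, RNA polymerase I, initiation factors or TOP-class list was called between genotypes in GCB or FoB, with or without the block.

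**Figure D5:**
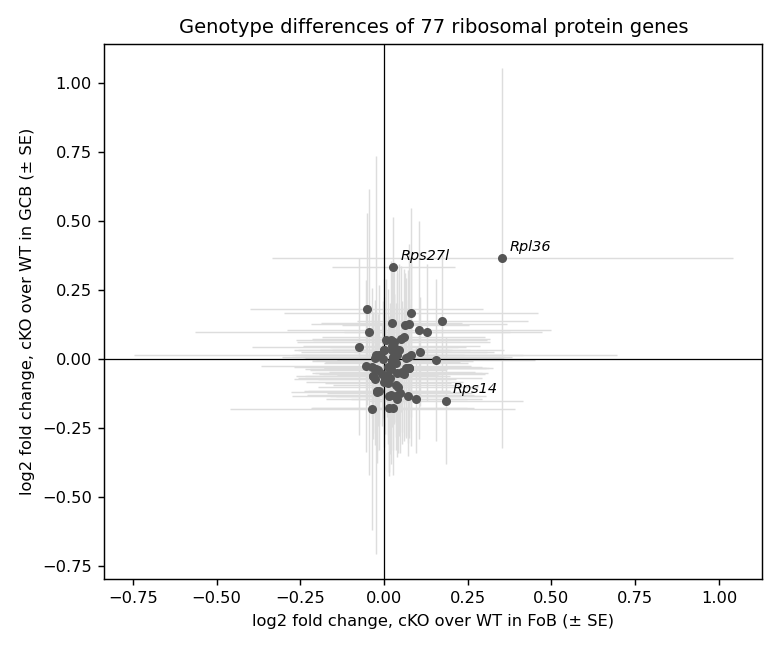
Log2 fold change of cKO over WT in FoB (horizontal axis) and in GCB (vertical axis) for the 77 ribosomal protein genes, with ± SE as grey lines. The points lie between -0.18 and 0.37 in GCB and between -0.07 and 0.35 in FoB, and no member passed edgeR's test in either.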

How the data were processed

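Polyadenylated RNA of sorted spleen B cells was sequenced in 12 libraries on a HiSeq2500 after Nextera preparation, per the labels. The table used holds raw read counts per gene, deposited by the authors. The authors' deposited results give log2 fold changes, p-values and false discovery rates of cKO over WT, used only where named. The submitters' processing notes name the build mm10 and the tools edgeR, Bowtie2 and MACS2. How reads were counted, with which annotation and use of strand, is not given in the sources used here, so genes that overlap others, hold snoRNA genes or have pseudogenes carry an uncertain share of reads. The 4 ATAC-seq samples were not analysed here.

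Counts were tested in R 4.3.3 with edgeR 4.0.16 (TMM factors, filterByExpr on the 4 groups, quasi-likelihood test with a mean per group over the 12 libraries together, Benjamini-Hochberg over 13708 genes, threshold 0.05). The filter left out 11932 rows. Identical libraries numbered 0. Residual degrees of freedom were 8 and the biological coefficient of variation 0.266 (6 and 0.114 with the block). The scripts were tested on simulated counts, drawn independently for each library. These lacked the deviations shared by a library number, so that test does not cover their effect on the calls. With group means removed, correlations across genes between groups were 0.505 to 0.802 in the 18 same-numbered pairs and, in the 36 others, -0.713 to 0.0463, and 12 of 12 libraries lay closest to one of their own number. The numbers therefore pair the samples, as the data show and the labels do not state. The fit without the block leaves this pairing out, and it gives the calls wherever the block is not named.

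CPM are TMM-scaled, levels are mean ± SD and log2 fold changes are ± SE. Levels were not compared between genes, since no transcript lengths were used, and the part of the naming rule that ranks members by level per length could not be applied. Named were the relatives of canonical genes and their partners, up to 5 members called in each direction (or the 5 smallest p-values), members of a few roles, X-linked members, those next to the count limit, and up to 2 genes of each other list. Members, roles and lists were chosen with earlier results of these data known. Promoters came from RefSeq's GRCm38.p6, and the motif search read 58 members.

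Alternatives were edgeR's RLE factors, library totals alone, TMM without the members, no low-count filter, DESeq2 1.42.0, the block, only the groups compared, leaving out number 2, WT FoB 1 with cKO GCB 1, or each library, and for the share all 87 symbols or a total without mitochondrially encoded genes. The values of 1 member that enters the counts are not reported here.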

Additional observations from a re-analysis of the deposited data

Results flagged for a closer look

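Rpl9, a large subunit protein, was lower in cKO than in WT in all 3 numbers of GCB and higher in all 3 numbers of FoB. Its levels were 1471, 2036 and 1679 CPM in WT FoB, 1637, 2122 and 1783 in cKO FoB, 842, 1093 and 1143 in WT GCB and 733, 1033 and 1015 in cKO GCB. The difference of the 2 genotype effects was tested and measured -0.24 ± 0.28 on the log2 scale (edgeR adjusted p = 1.00), and it was 0.0052 without WT FoB 1 and cKO GCB 1. Groups of 3 libraries were not tested for single libraries far from the others.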

How the results depend on the processing

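The counts of members called between cell types depended on the block and on the libraries. In WT, members that fell numbered 32 as reported, 67 with the replicate block, 17 without number 2, 64 with the block and number 2 left out, and 65 with the block and WT FoB 1 and cKO GCB 1 left out. In cKO these counts were 34, 66, 17, 63 and 61, and 17 without WT FoB 1 and cKO GCB 1 and no block. In cKO 2 members rose, 4 with the block and 1 without number 2. Both settings that join the block with left-out libraries were chosen after seeing the data. In the fit without the block, leaving out 1 library gave 12 to 40 lower members in WT, 15 to 38 in cKO and 2 higher in each. It gave 0 between genotypes or for their difference. With 1 library left out the mean share ran from 7.58% to 8.64% in WT FoB, 8.04% to 8.59% in cKO FoB, 4.57% to 5.45% in WT GCB and 4.67% to 5.40% in cKO GCB. Other scalings, no low-count filter, DESeq2 and a fit of only the groups compared gave 30 to 41 lower members and 2 higher. The median over members was -0.80 to -0.44 in WT and -0.77 to -0.47 in cKO over all alternatives. Between genotypes it was -0.19 to 0.12 in GCB and -0.13 to 0.17 in FoB. For the difference of the 2 genotype effects it was -0.21 to 0.23. Rps27, Rps24, Rps27l, Rpl17, Rps14 and Rps27rt kept their call in both genotypes in 23 of 23 alternatives. The block changed no call between genotypes among the members.

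Signs turned only for values that had not passed. Without WT FoB 1 and cKO GCB 1 the genotype difference in FoB was -0.042 for Rpl15, -0.060 for Rps10 and -0.027 for Rpl10a, the difference of effects was 0.0052 for Rpl9, 0.044 for Rpl35a and 0.055 for Rps24, and Rpl22l1 in WT was 0.0089. With 1 library left out, these FoB values ran from -0.043 to 0.27 for Rpl15, -0.061 to 0.29 for Rps10 and -0.028 to 0.24 for Rpl10a, each lowest without WT FoB 1. Rps24 in the difference of effects ran from -0.36 to 2.4e-06 (without cKO FoB 2). Rpl22l1 ran from -0.17 to 0.15 in WT, above 0 without WT FoB 1, WT FoB 2, WT GCB 3 or cKO GCB 2, and from -0.42 to 0.13 in cKO, above 0 without cKO FoB 2 or cKO GCB 3. The causes were not tested. With 3 libraries a group, differences well under the spread of 0.32 on the log2 scale could not be told from it without the block.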
